A study of Homo sapiens with 40 samples.

Results

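BT474 is a human breast cancer line of luminal origin with amplified ERBB2 (HER2) that responds to trastuzumab, and the comparison described here is the difference between its RNA after 24 h with heregulin (HRG, 10 ng/mL) and after 24 h with EGF (50 ng/mL). The 4 libraries, 2 per ligand, were chosen by their titles from the 40 libraries of the series. Vehicle, which was water, at 24 h in the same line gave the background, the ligand libraries at 1 h and 12 h gave the same contrast at other times, and BT474R at 24 h gave it in a resistant line, which is 1 clone of BT474 grown in trastuzumab. In every group the cells had been starved of serum before the treatment, and each group held 2 libraries, so n = 2 throughout. The ligands were given at different concentrations, so ligand and dose cannot be told apart. Duplicates were separate treatments, but nothing says that they came from separate cultures. The p-values then measure only the spread between duplicates, which may be technical. That spread was pooled over all libraries in a fit, for BT474 all 20, and not taken from the compared libraries alone.

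Gene counts per library were between 21325253 and 29098915 for the ligand groups at 24 h. The duplicates of EGF at 24 h differed more from each other than those of any other BT474 group, with a median chi-square of 1.27 per gene where sampling alone would give 0.455, and the value was 1.09 for HRG. CPM are counts scaled to a common library total. For single genes below they are also scaled by the TMM method, which evens out library composition. Summed levels of cell type markers are scaled by the library total alone, so the 2 kinds of level are not on the same scale. All 9 markers of luminal breast epithelium were present, with a summed level between 12040 and 13310 CPM over the HRG, EGF and vehicle libraries. ERBB2 alone made 6119 to 7662 CPM of that sum. Levels below are CPM, which are not divided by gene length and are compared only between libraries, never between genes. Differences are HRG minus EGF on the log2 scale with their standard error (SE), and DEGs are genes with an adjusted p below 0.05, from the quasi-likelihood test of edgeR, with all tested genes entering the Benjamini-Hochberg adjustment.

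EGF binds the receptor EGFR, whereas HRG, a product of the neuregulin genes, binds ERBB3 and ERBB4. HER2 has no known ligand of its own and is the favoured partner of the other family members, so both ligands can reach it through receptor pairs. ERBB3 has a weak kinase but many docking sites for PI3K, and EGFR signals strongly to the RAS and ERK cascade. Receptors in this family are switched down by feedback genes such as ERRFI1 and by loss from the membrane.

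Of the 73 DEGs higher with HRG, 50 had a promoter sequence under their symbol in the RefSeq table (build GRCh38.p14), as had 136 of the 181 higher with EGF and 15526 of the 25146 genes tested. The following are the 250 bases before the start of 4 of them, from the plus strand, shown because they pair a gene higher with HRG and a gene higher with EGF that hold the same letters. In AREG and TP53INP2 the capitals mark a cyclic AMP response element (CRE), TGACGTCA, and in TP53INP2 also the STAT motif TTCNNNGAA. In SLC6A14 and SCGN they mark an AP-1 motif, TGANTCA.
AREG, higher with HRG, chr4:74444886-74445135: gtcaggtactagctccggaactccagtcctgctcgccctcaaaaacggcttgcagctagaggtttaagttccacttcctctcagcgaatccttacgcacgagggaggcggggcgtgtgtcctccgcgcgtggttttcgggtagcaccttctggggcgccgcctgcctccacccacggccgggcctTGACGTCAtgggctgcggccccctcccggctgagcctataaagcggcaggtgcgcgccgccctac
TP53INP2, higher with EGF, chr20:34704094-34704343: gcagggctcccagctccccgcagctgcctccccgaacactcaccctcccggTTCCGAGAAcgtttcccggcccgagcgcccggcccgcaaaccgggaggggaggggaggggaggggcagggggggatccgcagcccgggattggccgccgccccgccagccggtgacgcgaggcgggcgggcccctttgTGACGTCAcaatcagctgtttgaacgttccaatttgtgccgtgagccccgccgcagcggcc
SLC6A14, higher with HRG, chrX:116436356-116436605: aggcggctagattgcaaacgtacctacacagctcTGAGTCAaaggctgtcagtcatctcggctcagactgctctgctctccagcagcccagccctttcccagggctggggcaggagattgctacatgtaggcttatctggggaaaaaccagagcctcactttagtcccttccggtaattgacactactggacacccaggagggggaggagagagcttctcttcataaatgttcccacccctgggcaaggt
SCGN, higher with EGF, chr6:25651965-25652214: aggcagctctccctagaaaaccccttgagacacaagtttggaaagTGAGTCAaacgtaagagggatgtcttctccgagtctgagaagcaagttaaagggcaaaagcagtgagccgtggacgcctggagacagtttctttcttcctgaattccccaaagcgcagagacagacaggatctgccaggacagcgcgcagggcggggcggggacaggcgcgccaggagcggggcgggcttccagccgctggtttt
The CRE starts 65 bases before the start of AREG and 61 bases before that of TP53INP2, which has 2 starts in the table, the first of which was used. The AP-1 motif starts 216 bases before the start of SLC6A14 and 205 bases before that of SCGN. Both strands were searched. AP-1 motifs were found in 8% of the promoters of genes higher with HRG, 8.82% of those higher with EGF and 4.9% of all, and CREs in 4%, 2.21% and 2.39%. The FOXO motif TGTTTAC was in 6%, 2.21% and 2.33%, the STAT motif in 8%, 3.68% and 5.73%, and the E-box CACGTG in 8%, 8.82% and 8.01%. A match is a stretch of letters and not a site shown to be bound.

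The RNA of HRG-BT474 and EGF-BT474 differed little at 24 h. Of 25146 genes tested, 254 were DEGs (1.01%), of which 73 were higher with HRG (0.29%) and 181 higher with EGF (0.72%), and 2708 had an unadjusted p below 0.05. The shares of 0.29% and 0.72% are the background for every count of called list members at 24 h in BT474. The differences were small, with a median absolute log2 difference of 0.27 among the DEGs. A total of 225 of the 254 (88.6%) were under 1.5-fold and 10 were over 2-fold, 5 in each direction. In all 254 the HRG libraries did not overlap the EGF libraries, as was so for 34.3% of all genes tested. Among the 14945 genes with a mean of at least 1 CPM, the 95% confidence interval of the difference lay within 1.5-fold in either direction for 12812 (85.7%). The spread behind the intervals and SEs was estimated over all 20 BT474 libraries. Duplicates of the other BT474 groups were closer, with a median chi-square of 0.595 to 0.85 against 1.27 for EGF and 1.09 for HRG at 24 h. The intervals and SEs here and below may therefore be too narrow for this contrast. The number of DEGs depended on single libraries. It was 169 without EGF replicate 1, 857 (402 higher with HRG) without EGF replicate 2, 224 (47 higher with HRG) without HRG replicate 1, and 229 (120 higher with HRG) without HRG replicate 2. Setting DESeq2 in place of edgeR gave 146 DEGs, fitting the 4 libraries on their own gave 44, and testing with no filter on low counts gave 399.

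**Figure D1:**
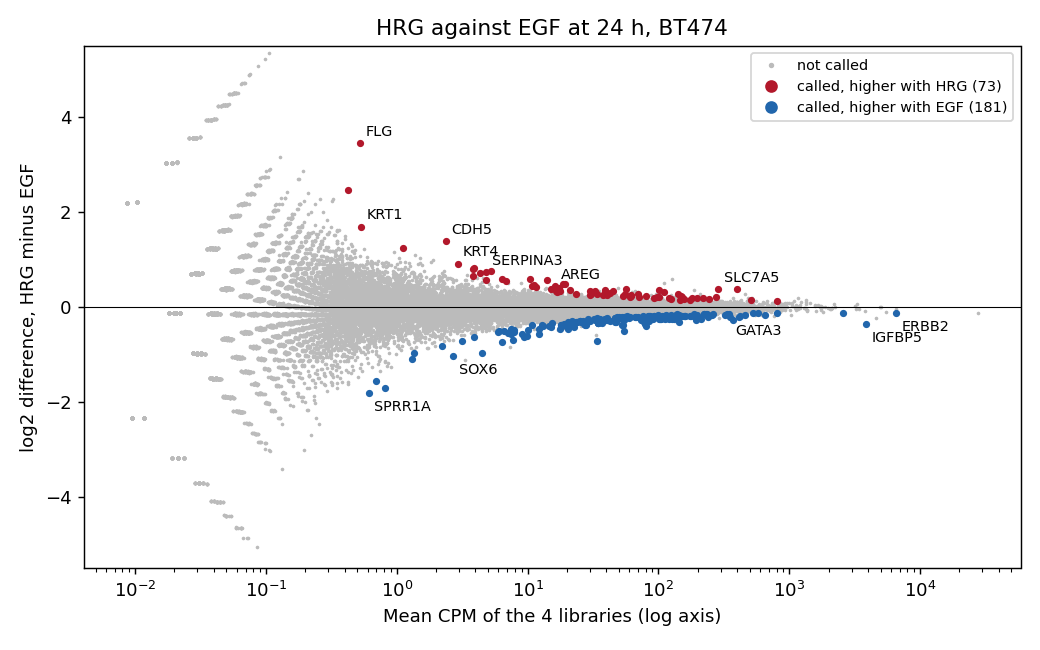
Each point is 1 of the 25146 genes tested, with the mean level of the 4 libraries in CPM on a log axis and the log2 difference of HRG minus EGF at 24 h on the other. Red points are the 73 DEGs higher with HRG and blue points the 181 higher with EGF, and nearly all of them lie within 1 log2 unit of 0, with FLG and SPRR1A among the exceptions at low levels.

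The widest differences in favour of HRG, among DEGs of at least 1 CPM, were in genes of low level. CDH5, the cadherin of endothelial junctions, was at 3.08 and 3.75 CPM with HRG, 1.03 and 1.60 CPM with EGF and 0 and 0.237 CPM with vehicle, so it was 2.62-fold higher with HRG than with EGF (log2 1.39 ± 0.25, adjusted p = 0.00056). Both HRG libraries lay above both EGF libraries, as the rule for naming required, and the vehicle libraries were near the limit of detection. A panel of 6 endothelial markers did not move in that direction, with summed levels of 14.2 and 16.3 CPM with HRG and 15.3 and 16.7 CPM with EGF, almost all of it VWF, and 5 of the 6 were under 1 CPM in each of these libraries and those of vehicle. KRT4, a keratin of moist surface epithelia, was at 3.98 and 3.71 CPM with HRG, 2.45 and 1.56 CPM with EGF and 0.878 and 1.15 CPM with vehicle (log2 0.92 ± 0.21, adjusted p = 0.0111). CDSN, which encodes corneodesmosin of the cornified layer, was at 5.64 and 5.21 CPM with HRG, 3.40 and 3.16 CPM with EGF and 2.83 and 3.04 CPM with vehicle (log2 0.72 ± 0.16, adjusted p = 0.00515). That EGF libraries sat below HRG libraries in all these genes follows from the rule, which took only genes whose groups did not overlap. For CDSN the EGF libraries were close to vehicle. CDH5 lost the call without EGF replicate 1 (log2 1.08, adjusted p = 0.0811). KRT4 lost the call without EGF replicate 2 (log2 0.65, adjusted p = 0.131). KRT4 and CDSN lost the call without HRG replicate 1 (log2 0.86 and 0.66 in that order, adjusted p between 0.0758 and 0.0877).

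PTGS1, which encodes cyclooxygenase-1 of prostaglandin synthesis, was at 7.54 and 5.67 CPM with HRG, 3.75 and 4.19 CPM with EGF and 1.12 and 1.94 CPM with vehicle (log2 0.75 ± 0.16, adjusted p = 0.00493). SERPINA3, a secreted inhibitor of serine proteases, was at 5.92 and 6.17 CPM with HRG, 3.17 and 4.10 CPM with EGF and 1.32 and 1.11 CPM with vehicle (log2 0.74 ± 0.16, adjusted p = 0.00462). DHRS3, an enzyme that reduces retinal to retinol, was at 7.99 and 7.42 CPM with HRG, 5.47 and 4.67 CPM with EGF and 1.46 and 2.17 CPM with vehicle (log2 0.60 ± 0.14, adjusted p = 0.0171). For these genes HRG was highest, EGF intermediate and vehicle lowest, with no overlap. TGFBI, an extracellular matrix protein induced by TGF-beta, had the same order at 13.1 and 12.0 CPM with HRG, 8.37 and 8.39 CPM with EGF and 2.88 and 3.12 CPM with vehicle (log2 0.59 ± 0.11, adjusted p = 0.000819). Its call was kept without each of the 4 libraries, but lost when both lines were fitted together. NUDT13, which encodes a hydrolase of the Nudix family, was at 4.36 and 5.09 CPM with HRG, 3.17 and 2.78 CPM with EGF and 3.61 and 4.27 CPM with vehicle (log2 0.65 ± 0.17, adjusted p = 0.0375), so vehicle lay between the ligands. CYP2B7P (log2 0.81 ± 0.18, adjusted p = 0.00909), a pseudogene nearly identical to CYP2B6, and SNORA105A (log2 0.82 ± 0.18, adjusted p = 0.00563), a small nucleolar RNA, are uncertain, since reads could be shared with the functional copy or with the transcript that holds the small RNA. PTGS1, SERPINA3, NUDT13, CYP2B7P and SNORA105A lost the call without EGF replicate 1 (log2 0.67, 0.56, 0.76, 0.66 and 0.43 in that order, adjusted p between 0.102 and 0.498). DHRS3 and NUDT13 lost the call without EGF replicate 2 (log2 0.50 and 0.57 in that order, adjusted p between 0.0934 and 0.12). PTGS1, DHRS3 and SNORA105A lost the call without HRG replicate 1 (log2 0.52, 0.54 and 0.70 in that order, adjusted p between 0.116 and 0.252). NUDT13 and CYP2B7P lost the call without HRG replicate 2 (log2 0.54 and 0.73 in that order, adjusted p between 0.0742 and 0.24). The SNORA105A difference was 1.26 without EGF replicate 2 (adjusted p = 4.90e-05).

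The widest differences in favour of EGF, by the same rule, were in genes that both ligands lowered from vehicle, HRG further than EGF. SOCS2, which encodes a feedback inhibitor of growth hormone and cytokine signals, was at 2.73 and 3.34 CPM with HRG, 5.28 and 6.69 CPM with EGF and 18.0 and 19.1 CPM with vehicle. It was 1.97-fold higher with EGF than with HRG (log2 -0.98 ± 0.15, adjusted p = 2.11e-05). GPAT3, which adds the first fatty acid to glycerol 3-phosphate in triglyceride synthesis, was at 1.00 and 0.834 CPM with HRG, 1.87 and 1.74 CPM with EGF and 8.14 and 7.07 CPM with vehicle (log2 -0.97 ± 0.26, adjusted p = 0.0475). SOX6, a transcription factor of the SRY-box family, was at 2.18 and 1.33 CPM with HRG, 3.75 and 3.58 CPM with EGF and 10.3 and 9.76 CPM with vehicle (log2 -1.03 ± 0.20, adjusted p = 0.000819). In each of these genes vehicle was highest, EGF lower and HRG lowest, with no overlap between groups. GPAT3 lost the call without EGF replicate 1 (log2 -0.91, adjusted p = 0.274) and without HRG replicate 1 (log2 -1.12, adjusted p = 0.11). GPAT3 and SOX6 lost the call without HRG replicate 2 (log2 -0.85 and -0.75 in that order, adjusted p between 0.0742 and 0.223).

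CBLN2, a secreted organizer of synapses, was at 8.30 and 6.38 CPM with HRG, 12.1 and 10.7 CPM with EGF and 50.8 and 48.7 CPM with vehicle (log2 -0.62 ± 0.11, adjusted p = 0.000173). MYRIP, which links Rab27 on secretory granules to myosin, was at 6.12 and 5.63 CPM with HRG, 9.33 and 9.71 CPM with EGF and 18.6 and 17.7 CPM with vehicle (log2 -0.69 ± 0.12, adjusted p = 0.000173). SCGN, the calcium-binding protein secretagogin, was at 9.20 and 10.5 CPM with HRG, 14.8 and 14.3 CPM with EGF and 22.6 and 20.3 CPM with vehicle (log2 -0.57 ± 0.11, adjusted p = 0.000661). For each, HRG was lowest and vehicle highest, and the calls of CBLN2, MYRIP and SCGN were kept without each of the 4 libraries. STXBP5L, which encodes a tomosyn that holds back vesicle fusion, was at 2.91 and 1.88 CPM with HRG, 4.17 and 3.77 CPM with EGF and 15.7 and 13.8 CPM with vehicle (log2 -0.71 ± 0.19, adjusted p = 0.0437). CTTNBP2, a cortactin-binding protein of dendritic spines, was at 5.12 and 4.54 CPM with HRG, 8.87 and 7.12 CPM with EGF and 13.99 and 12.5 CPM with vehicle (log2 -0.73 ± 0.13, adjusted p = 0.000278). UPK1A, a uroplakin of the bladder lining, was at 7.51 and 8.34 CPM with HRG, 12.1 and 12.0 CPM with EGF and 18.8 and 18.5 CPM with vehicle (log2 -0.61 ± 0.11, adjusted p = 0.000254). The order of the groups was again HRG, EGF and vehicle from low to high. STXBP5L and CTTNBP2 lost the call without EGF replicate 1 (log2 -0.63 and -0.55 in that order, adjusted p between 0.0952 and 0.326). STXBP5L lost the call without HRG replicate 2 (log2 -0.46, adjusted p = 0.396). The STXBP5L difference was -1.09 without HRG replicate 1 (adjusted p = 0.00837).

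**Figure D2:**
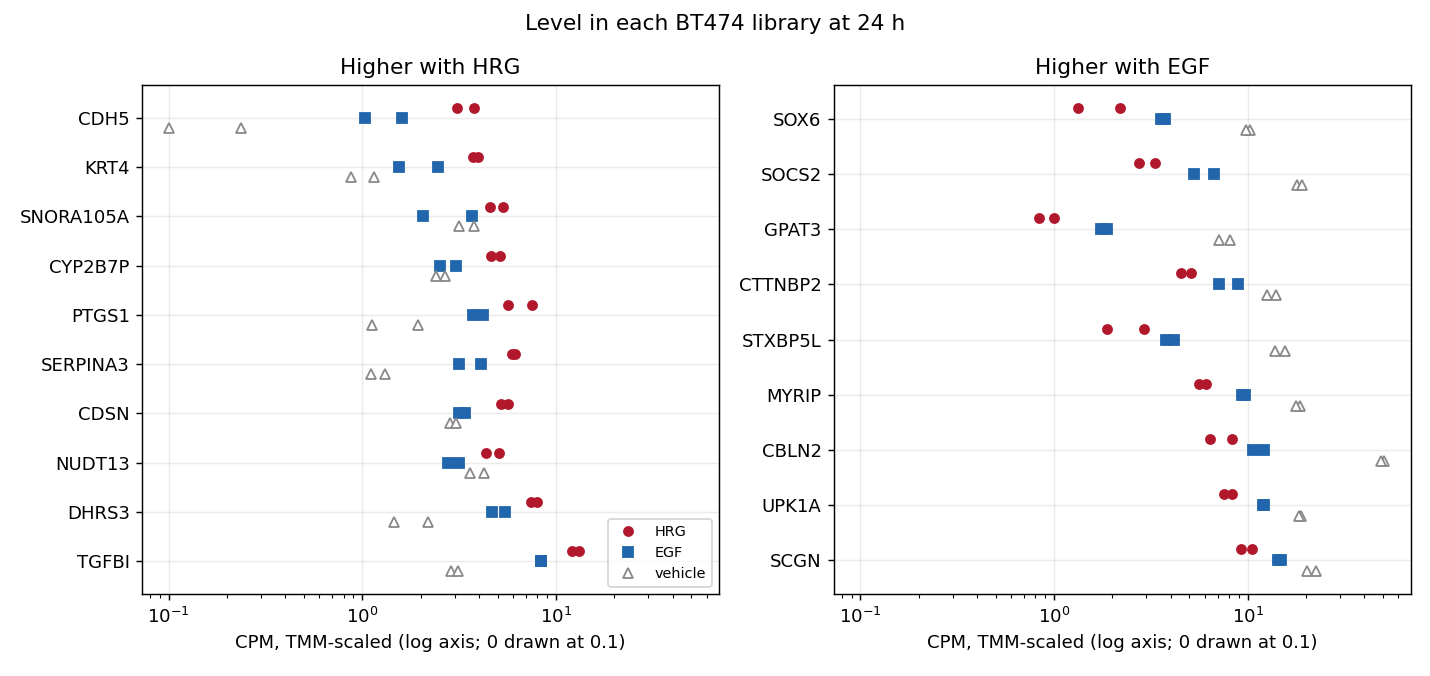
Levels in TMM-scaled CPM on a log axis of the named DEGs with the widest difference, 10 higher with HRG and 9 higher with EGF, with 1 point per library for HRG (red circles), EGF (blue squares) and vehicle (open triangles) at 24 h in BT474, and 0 drawn at 0.1. In every row the HRG points lie to 1 side of the EGF points, as the rule for naming these genes required. On the right the vehicle points are highest throughout, as for SOCS2 at 18.0 and 19.1 CPM.

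The receptors of the family were slightly lower with HRG or did not pass the test, with 0 of 4 higher and 2 of 4 lower. ERBB2 was at 6161 and 6417 CPM with HRG, 6777 and 6848 CPM with EGF and 7099.6 and 7397 CPM with vehicle, the 4 ligand libraries lying below vehicle and the HRG libraries lowest (log2 -0.12 ± 0.03, adjusted p = 0.0128). ERBB3, the receptor for HRG, was at 217 and 230.1 CPM with HRG, 249 and 247 CPM with EGF and 261 and 278 CPM with vehicle (log2 -0.15 ± 0.04, adjusted p = 0.0245). EGFR, the receptor for EGF, was at 108 and 117 CPM with HRG and 105 and 124 CPM with EGF (log2 -0.02 ± 0.08, adjusted p = 0.972), with overlapping groups and an interval from -0.21 to 0.16. ERBB4 was at 19.7 and 16.6 CPM with HRG, 20.5 and 19.0 CPM with EGF and 35.4 and 36.1 CPM with vehicle (log2 -0.12 ± 0.08, adjusted p = 0.652). The differences in ERBB2 and ERBB3 were 1.08-fold and 1.11-fold. When counts of rows that repeat a gene's name were added together, the adjusted p was 0.0542 for ERBB2 and 0.0508 for ERBB3. ERBB3 lost the call without EGF replicate 1 (log2 -0.14, adjusted p = 0.108). ERBB2 and ERBB3 lost the call without HRG replicate 1 (log2 -0.09 and -0.11 in that order, adjusted p between 0.206 and 0.304).

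Among 10 ligands of the family with counts enough to be tested, 1 was higher with HRG and 0 were lower. AREG, amphiregulin, which binds EGFR, was at 19.8 and 17.6 CPM with HRG, 13.8 and 13.9 CPM with EGF and 3.51 and 2.73 CPM with vehicle (log2 0.44 ± 0.09, adjusted p = 0.00496), so both ligands lay far above vehicle and HRG highest. TGFA, another ligand of EGFR, was at 10.4 and 10.9 CPM with HRG and 9.64 and 10.2 CPM with EGF (0.11 ± 0.11, adjusted p = 0.803). BTC, betacellulin, which binds EGFR and ERBB4, was at 4.60 and 4.38 CPM with HRG, 3.25 and 4.62 CPM with EGF and 2.63 and 1.98 CPM with vehicle (0.21 ± 0.17, adjusted p = 0.724), and its groups overlapped. EPGN, epigen, was at 24 and 18 counts with HRG and 10 and 6 counts with EGF (1.22 ± 0.41, adjusted p = 0.171). The other ligands did not pass the test. HBEGF had a log2 difference of -0.73 ± 0.46 (adjusted p = 0.604), EREG of -0.36 ± 0.58, NRG3 of -0.34 ± 0.20, NRG4 of 0.08 ± 0.45 and EGF itself of 0.05 ± 0.18. NRG2 was at 2 and 2 counts with HRG and 6 and 3 with EGF, too few to show a difference. AREG lost the call without EGF replicate 1 (log2 0.44, adjusted p = 0.0501) and without HRG replicate 1 (log2 0.35, adjusted p = 0.135).

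Feedback and early response genes of the receptors held 1 DEG between the ligands. Of 17 feedback inhibitors of the receptors, 10 MAP kinase phosphatases and 16 G1 cyclins and CDK inhibitors, 0 were called in either direction by edgeR. At an unadjusted p below 0.05, which 4.49% of all genes passed higher with HRG and 6.28% higher with EGF, 1 feedback inhibitor was higher and 3 lower, 1 phosphatase was higher and 1 lower, and 1 cyclin or CDK inhibitor was lower. DUSP6, the phosphatase that acts on ERK and rises with its activity, was at 130.4 and 137 CPM with HRG, 132 and 139 CPM with EGF and 33.4 and 36.3 CPM with vehicle, far above vehicle with both ligands. Its difference between the ligands was -0.02 ± 0.05 (adjusted p = 0.957), with an interval from -0.11 to 0.08. ERRFI1, which binds and inhibits the EGFR kinase, was at 34.7 and 37.0 CPM with HRG and 35.3 and 37.8 CPM with EGF (-0.03 ± 0.06, adjusted p = 0.939). CCND1, cyclin D1, was at 709 and 739 CPM with HRG and 664 and 755 CPM with EGF (0.03 ± 0.04, adjusted p = 0.862), MYC, the growth transcription factor, at 38.2 and 38.1 CPM with HRG and 35.0 and 39.3 CPM with EGF (0.04 ± 0.06, adjusted p = 0.891). The groups overlapped in CCND1 and MYC. Of 28 transcription factors that ERK induces, 0 were higher and 1 lower with HRG, namely FOSL2, a partner of JUN in AP-1, at 114 and 103 CPM with HRG, 129 and 123 CPM with EGF and 182 and 163 CPM with vehicle (-0.21 ± 0.05, adjusted p = 0.00903). At an unadjusted p below 0.05, 1 of the 28 was higher and 7 were lower, the median was -0.06, and in 19 the interval lay within 1.5-fold. FOSL2 lost the call without EGF replicate 1 (log2 -0.18, adjusted p = 0.176) and without HRG replicate 2 (log2 -0.15, adjusted p = 0.193).

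Of 26 regulators of luminal identity and steroid response 5 were lower with HRG and 0 higher, as were 0.72% and 0.29% of all genes tested. The list as a whole was mixed. At an unadjusted p below 0.05 in the edgeR test 9 were lower and 4 higher, and 14 had a difference below 0 and 12 above. GATA3, the transcription factor that maintains luminal cells, was at 316 and 334 CPM with HRG, 383 and 372 CPM with EGF and 521 and 541 CPM with vehicle (-0.22 ± 0.04, adjusted p = 0.000151). Its call was kept without each of the 4 libraries, but lost when these 4 were fitted on their own and when both lines were fitted together. THRA, the thyroid hormone receptor alpha, was at 146 and 136 CPM with HRG, 166 and 153 CPM with EGF and 196 and 181 CPM with vehicle (-0.18 ± 0.04, adjusted p = 0.0189). In both genes HRG was lowest and vehicle highest. TFF3, a secreted trefoil peptide that oestrogen induces, was at 85.3 and 78.5 CPM with HRG, 90.4 and 99.6 CPM with EGF and 105 and 100.9 CPM with vehicle (-0.21 ± 0.05, adjusted p = 0.0098). Another, named after its values were seen, was TFAP2C, a transcription factor of luminal cells, at 211 and 215 CPM with HRG, 228 and 244 CPM with EGF and 259 and 256 CPM with vehicle (-0.15 ± 0.04, adjusted p = 0.0245). The median of the list was -0.01, the same as over all genes tested. IGFBP5, a binding protein of insulin-like growth factors, was the called member of 24 FOXO targets and insulin receptor feedback genes, of which 0 were higher and 1 lower. It was at 3598 and 3239.7 CPM with HRG, 4634 and 4065 CPM with EGF and 9024 and 8203 CPM with vehicle (-0.35 ± 0.07, adjusted p = 0.0379). THRA and IGFBP5 lost the call without EGF replicate 1 (log2 -0.12 and -0.25 in that order, adjusted p between 0.175 and 0.371). TFF3 and TFAP2C lost the call without EGF replicate 2 (log2 -0.14 and -0.10 in that order, adjusted p between 0.147 and 0.199). TFAP2C lost the call without HRG replicate 1 (log2 -0.14, adjusted p = 0.136). THRA, TFF3, TFAP2C and IGFBP5 lost the call without HRG replicate 2 (log2 -0.13, -0.15, -0.16 and -0.27 in that order, adjusted p between 0.0512 and 0.249).

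Of 22 transporters and enzymes of amino acid use 3 were higher with HRG and 0 lower, as were 0.29% and 0.72% of all genes tested. At an unadjusted p below 0.05 in the edgeR test 5 were higher and 1 lower, and 12 had a difference above 0 and 10 below. SLC7A5 carries leucine and other large neutral amino acids into the cell, and was at 343 and 306 CPM with HRG, 266 and 235 CPM with EGF and 192 and 163 CPM with vehicle (0.37 ± 0.08, adjusted p = 0.0443). SLC3A2, the heavy chain that brings SLC7A5 to the membrane, counted here with the integrated stress response genes, was at 169 and 157 CPM with HRG, 139 and 143 CPM with EGF and 116 and 112 CPM with vehicle (0.21 ± 0.04, adjusted p = 0.00223). SLC6A14, a broad amino acid transporter whose promoter is shown above, was at 23.9 and 21.2 CPM with HRG, 15.5 and 16.9 CPM with EGF and 17.4 and 14.7 CPM with vehicle (0.49 ± 0.08, adjusted p = 0.000239). HRG lay above EGF and vehicle in these genes, of which SLC7A5 and SLC6A14 belong to the list and SLC3A2 does not. For SLC6A14 the EGF and vehicle libraries overlapped. The remaining called member of the list is not reported here. The median of the list was 0.01. With the replicate number as a block in the edgeR fit SLC7A5 lost the call (adjusted p = 0.0575), and with a block within each time point it kept the call. SLC7A5 lost the call without EGF replicate 2 (log2 0.29, adjusted p = 0.112). SLC7A5 and SLC3A2 lost the call without HRG replicate 1 (log2 0.29 and 0.15 in that order, adjusted p between 0.137 and 0.173).

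Ribosome biogenesis genes leaned to HRG by little. Of 40, 2 were higher and 0 lower, as were 0.29% and 0.72% of all genes tested. At an unadjusted p below 0.05 in the edgeR test 17 were higher, as were 4.49% of all genes, and 0 lower. A difference above 0 was found in 35, where 47.2% of all genes had one, and the median was 0.10. DDX21, an RNA helicase of ribosomal RNA processing, was at 304 and 284 CPM with HRG, 241 and 269 CPM with EGF and 204 and 201 CPM with vehicle (0.21 ± 0.04, adjusted p = 0.00105). NOLC1, a nucleolar phosphoprotein, was at 188 and 182 CPM with HRG, 158 and 174 CPM with EGF and 149.7 and 151 CPM with vehicle (0.16 ± 0.04, adjusted p = 0.0383). In both genes EGF replicate 2 lay closer to the HRG libraries than EGF replicate 1 did. Of 40 mitosis genes 1 was higher, MAD2L1 of the spindle checkpoint, at 45.7 and 42.0 CPM with HRG, 33.6 and 40.3 CPM with EGF and 28.7 and 27.9 CPM with vehicle (0.26 ± 0.07, adjusted p = 0.0461), and 0 were lower. Of 41 DNA replication genes 0 were called by edgeR, with 4 higher and 1 lower at an unadjusted p below 0.05, and in all 41, as in all 40 mitosis genes, the interval lay within 1.5-fold. DDX21, NOLC1 and MAD2L1 lost the call without EGF replicate 1 (log2 0.13, 0.09 and 0.12 in that order, adjusted p between 0.179 and 0.677) and without HRG replicate 1 (log2 0.16, 0.13 and 0.19 in that order, adjusted p between 0.076 and 0.347). The MAD2L1 difference was 0.39 without EGF replicate 2 (adjusted p = 0.000495).

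Sterol synthesis genes leaned to EGF. Of 24, 3 were lower with HRG and 0 higher, as were 0.72% and 0.29% of all genes tested. At an unadjusted p below 0.05 in the edgeR test 12 were lower, as were 6.28% of all genes. All 24 had a difference below 0, as had 52.4% of all genes, with a median of -0.11. LSS, which closes the sterol rings as lanosterol synthase, was at 94.7 and 89.2 CPM with HRG, 110.1 and 109 CPM with EGF and 103 and 93.5 CPM with vehicle (-0.25 ± 0.05, adjusted p = 0.00202). MVK, mevalonate kinase, was at 45.4 and 42.2 CPM with HRG, 51.2 and 52.0 CPM with EGF and 45.4 and 47.1 CPM with vehicle (-0.23 ± 0.06, adjusted p = 0.0274). TM7SF2, a sterol reductase, was at 225 and 226 CPM with HRG, 255 and 259 CPM with EGF and 257 and 252 CPM with vehicle (-0.19 ± 0.04, adjusted p = 0.00563). EGF libraries lay above HRG libraries by 1.14-fold to 1.19-fold. In all 24 the interval lay within 1.5-fold. Of 22 fatty acid synthesis genes 0 were higher and 1 lower, GPAT3, described above. MVK lost the call without EGF replicate 1 (log2 -0.24, adjusted p = 0.0882). LSS and MVK lost the call without HRG replicate 2 (log2 -0.21 and -0.18 in that order, adjusted p between 0.0563 and 0.246).

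Genes of energy use and stress changed singly and in both directions. Of 39 glycolysis and HIF target genes 1 was higher and 1 lower. EPAS1, which encodes the hypoxia-inducible factor HIF-2 alpha, was at 35.5 and 31.1 CPM with HRG, 26.6 and 26.3 CPM with EGF and 15.99 and 15.4 CPM with vehicle (0.33 ± 0.07, adjusted p = 0.00732). PDK2, a kinase that restrains pyruvate dehydrogenase, was at 32.9 and 32.3 CPM with HRG, 43.4 and 38.0 CPM with EGF and 53.9 and 54.7 CPM with vehicle (-0.32 ± 0.06, adjusted p = 0.00073). The order of the groups was thus reversed between EPAS1, where vehicle was lowest, and PDK2, where it was highest. HIF1A, the other HIF alpha subunit, was at 258 and 264 CPM with HRG and 260.2 and 260.0 CPM with EGF (0.00 ± 0.04, adjusted p = 0.989) with overlapping groups. Of 29 integrated stress response genes 2 were higher and 2 lower. The higher were SLC7A5 and SLC3A2. The lower were GDF15, a stress cytokine, at 4.88 and 6.004 CPM with HRG, 6.31 and 9.24 CPM with EGF and 0.244 and 0.158 CPM with vehicle (-0.50 ± 0.13, adjusted p = 0.0379), and NUPR1, a stress-induced chromatin protein, at 86.5 and 81.2 CPM with HRG, 105 and 93.5 CPM with EGF and 114 and 97.6 CPM with vehicle (-0.24 ± 0.06, adjusted p = 0.0295). GDF15 was far above vehicle with both ligands. PDK2 and NUPR1 lost the call without EGF replicate 1 (log2 -0.22 and -0.16 in that order, adjusted p between 0.174 and 0.395). GDF15 lost the call without EGF replicate 2 (log2 -0.23, adjusted p = 0.562). EPAS1, GDF15 and NUPR1 lost the call without HRG replicate 1 (log2 0.23, -0.35 and -0.29 in that order, adjusted p between 0.0536 and 0.382). NUPR1 lost the call without HRG replicate 2 (log2 -0.20, adjusted p = 0.242). The GDF15 difference was -0.77 without EGF replicate 1 (adjusted p = 0.00115).

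Of 48 interferon response genes 0 were called by edgeR, with 0 higher and 4 lower at an unadjusted p below 0.05 and a median of -0.10. IRF1, a transcription factor that interferon induces, was at 3.94 and 4.54 CPM with HRG and 4.13 and 4.90 CPM with EGF (-0.09 ± 0.15, adjusted p = 0.914), and its groups overlapped. Of 22 JAK, STAT and SOCS genes 0 were higher and 1 lower, which was SOCS2.

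Cell shape and adhesion genes were mixed. Of 33 cadherins, adhesion genes and mesenchymal regulators 1 was higher, CDH5, and 2 were lower. CDH2, N-cadherin, was at 11.6 and 9.09 CPM with HRG, 15.6 and 13.01 CPM with EGF and 30.7 and 28.8 CPM with vehicle (-0.46 ± 0.10, adjusted p = 0.00593). VIM, vimentin, the intermediate filament of mesenchymal cells, was at 23.1 and 25.1 CPM with HRG, 30.5 and 32.1 CPM with EGF and 41.2 and 35.7 CPM with vehicle (-0.38 ± 0.07, adjusted p = 0.000819). HRG was lowest and vehicle highest for both. The summed level of 7 fibroblast markers moved the same way, at 91.9 and 84.6 CPM with HRG, 102 and 98.0 CPM with EGF and 112 and 109 CPM with vehicle, nearly all of it COL1A1, and DCN and PDGFRB were at 0 in these libraries. Its part in the VIM and CDH2 differences was not tested. Of 20 TGF-beta, BMP and ID genes 0 were higher and 1 lower, SMAD7, the inhibitory SMAD, at 9.34 and 9.59 CPM with HRG and 11.7 and 12.8 CPM with EGF (-0.37 ± 0.10, adjusted p = 0.0486). S100A10, the annexin A2 partner, was the called member of 17 S100 proteins and metallothioneins, at 105 and 100.4 CPM with HRG, 124 and 119.7 CPM with EGF and 121 and 114 CPM with vehicle (-0.25 ± 0.04, adjusted p = 0.000348). Its call was kept without each of the 4 libraries, but lost when these 4 were fitted on their own. CDH2 and SMAD7 lost the call without EGF replicate 1 (log2 -0.32 and -0.44 in that order, adjusted p between 0.0738 and 0.337) and without HRG replicate 2 (log2 -0.31 and -0.38 in that order, adjusted p between 0.107 and 0.23). SMAD7 lost the call without EGF replicate 2 (log2 -0.30, adjusted p = 0.175). VIM and SMAD7 lost the call without HRG replicate 1 (log2 -0.31 and -0.35 in that order, adjusted p between 0.052 and 0.201).

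The following genes were outside the rule for naming and were chosen after their values were seen. Of 53 actin cytoskeleton and focal adhesion genes 1 was higher and 4 lower, as were 0.29% and 0.72% of all genes tested. ANXA1, annexin A1, a membrane-binding protein that resolves inflammation, was at 16.8 and 16.7 CPM with HRG, 10.1 and 12.5 CPM with EGF and 6.19 and 6.87 CPM with vehicle (0.58 ± 0.09, adjusted p = 7.69e-05). ACTG1, gamma actin, was at 2534 and 2401 CPM with HRG, 2732 and 2653 CPM with EGF and 2500.2 and 2429 CPM with vehicle (-0.13 ± 0.03, adjusted p = 0.012), so EGF lay above both HRG and vehicle. VASP, which extends actin filaments, was at 61.2 and 64.6 CPM with HRG and 72.6 and 72.7 CPM with EGF (-0.21 ± 0.05, adjusted p = 0.0145), and CORO1B, a coronin of the moving cell edge, at 245 and 239 CPM with HRG and 274 and 268 CPM with EGF (-0.16 ± 0.04, adjusted p = 0.0137). Among the DEGs of highest level was TNC, the matrix protein tenascin C, at 468 and 435 CPM with HRG, 369 and 321 CPM with EGF and 137 and 125 CPM with vehicle (0.39 ± 0.05, adjusted p = 6.16e-06), whose call was kept without each of the 4 libraries. PRKDC, the kinase of DNA end joining, was at 843 and 832 CPM with HRG and 781 and 742 CPM with EGF (0.14 ± 0.03, adjusted p = 0.0273), and CCT6A, a chaperonin subunit, at 567 and 513 CPM with HRG and 485 and 483 CPM with EGF (0.16 ± 0.04, adjusted p = 0.00928). On the side of EGF were ALDH3B2, an aldehyde dehydrogenase, at 741 and 794 CPM with HRG and 839 and 838 CPM with EGF (-0.13 ± 0.03, adjusted p = 0.0379), and ATP9A, a phospholipid flippase, at 626 and 599.8 CPM with HRG and 719 and 655 CPM with EGF (-0.16 ± 0.03, adjusted p = 0.00378). ALDH3B2 lost its call under 7 of the alternatives, among them DESeq2 (adjusted p = 0.0514). ANXA1, ACTG1, VASP, CORO1B, ALDH3B2 and ATP9A lost the call without EGF replicate 1 (log2 0.42, -0.10, -0.21, -0.15, -0.13 and -0.10 in that order, adjusted p between 0.0512 and 0.325). PRKDC lost the call without EGF replicate 2 (log2 0.10, adjusted p = 0.155). VASP, PRKDC, CCT6A and ALDH3B2 lost the call without HRG replicate 1 (log2 -0.17, 0.13, 0.08 and -0.08 in that order, adjusted p between 0.124 and 0.442). ACTG1, CORO1B, PRKDC and ATP9A lost the call without HRG replicate 2 (log2 -0.09, -0.14, 0.15 and -0.13 in that order, adjusted p between 0.0558 and 0.258).

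Genes of the cornified envelope, the tough shell of the outermost skin cells, were also chosen after their values were seen. Of 17 tested, 4 were higher and 1 lower, as were 0.29% and 0.72% of all genes tested. CDSN, described above, was among the 4. FLG, filaggrin, was at 32 and 20 counts with HRG, 3 and 1 counts with EGF and 23 and 10 counts with vehicle (3.46 ± 0.62, adjusted p = 0.000348). The ratio of summed counts, scaled by the library totals, was 11.7 with a 95% counting interval from 4.32 to 44.7, and the call was kept without each of the 4 libraries. HRG and vehicle thus overlapped and EGF lay below both. KRT1, the keratin of upper skin layers, also had EGF lowest, with vehicle above HRG, at 0.865 and 0.792 CPM with HRG, 0.306 and 0.188 CPM with EGF and 1.07 and 1.46 CPM with vehicle (1.70 ± 0.46, adjusted p = 0.0463). ABCA12, a lipid transporter of skin cells, was at 46.2 and 41.6 CPM with HRG, 35.4 and 33.3 CPM with EGF and 25.7 and 24.6 CPM with vehicle (0.36 ± 0.07, adjusted p = 0.00115). SPRR1A, a small proline-rich protein of the envelope, went the other way at 0.242 and 0.292 CPM with HRG, 0.688 and 1.23 CPM with EGF and 0.244 and 0.119 CPM with vehicle (-1.80 ± 0.49, adjusted p = 0.0475), with EGF alone above vehicle. FLG, KRT1 and SPRR1A were under 2 CPM in every HRG, EGF and vehicle library. KRT1 lost the call without EGF replicate 1 (log2 2.11, adjusted p = 0.132). KRT1 and SPRR1A lost the call without EGF replicate 2 (log2 1.43 and -1.36 in that order, adjusted p between 0.148 and 0.272) and without HRG replicate 2 (log2 1.75 and -1.93 in that order, adjusted p between 0.0856 and 0.121). KRT1, ABCA12 and SPRR1A lost the call without HRG replicate 1 (log2 1.63, 0.28 and -1.67 in that order, adjusted p between 0.0785 and 0.235).

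Of 62 lysosome and autophagy genes, a list likewise made after values were seen, 2 were higher with HRG and 8 lower. Over all genes tested the shares were 0.29% and 0.72%. The higher were the lysosomal proteases CTSH, at 45.0 and 41.7 CPM with HRG, 36.6 and 32.8 CPM with EGF and 20.7 and 22.4 CPM with vehicle (0.32 ± 0.07, adjusted p = 0.00493), and CTSD, at 217 and 206 CPM with HRG, 185 and 188 CPM with EGF and 154 and 149 CPM with vehicle (0.19 ± 0.04, adjusted p = 0.00378). Both were lowest with vehicle. The lower included CALCOCO1, an autophagy receptor, at 18.9 and 19.9 CPM with HRG, 26.2 and 25.3 CPM with EGF and 39.1 and 40.2 CPM with vehicle (-0.41 ± 0.08, adjusted p = 0.000629). HGSNAT, an enzyme that breaks down heparan sulfate, was at 23.7 and 25.3 CPM with HRG, 30.5 and 33.3 CPM with EGF and 39.1 and 42.8 CPM with vehicle (-0.38 ± 0.07, adjusted p = 0.000564). GRN, progranulin, was at 71.0 and 67.7 CPM with HRG, 88.7 and 79.6 CPM with EGF and 123 and 117 CPM with vehicle (-0.28 ± 0.05, adjusted p = 0.000333). These had HRG lowest and vehicle highest. TP53INP2, which recruits autophagy proteins and whose promoter is shown above, was at 128 and 129 CPM with HRG, 161 and 161 CPM with EGF and 100.1 and 107 CPM with vehicle (-0.32 ± 0.05, adjusted p = 2.05e-05), so both ligands raised it and EGF more. The calls of CALCOCO1, HGSNAT and TP53INP2 were kept without each of the 4 libraries. With these 4 fitted on their own CALCOCO1 and HGSNAT lost the call, and HGSNAT lost it also with both lines fitted together. GRN lost the call without EGF replicate 1 (log2 -0.20, adjusted p = 0.0857). CTSH lost the call without EGF replicate 2 (log2 0.25, adjusted p = 0.059). CTSH and CTSD lost the call without HRG replicate 1 (log2 0.26 and 0.15 in that order, adjusted p between 0.0971 and 0.116).

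A list of 14 genes in the region of chromosome 17 that is amplified in HER2-positive tumours, ERBB2 itself among them, was chosen after values were seen. With HRG 0 were higher and 3 lower, as were 0.29% and 0.72% of all genes tested. PGAP3, which remodels lipid anchors of membrane proteins, was at 401 and 381 CPM with HRG, 459.8 and 431 CPM with EGF and 551 and 528 CPM with vehicle (-0.19 ± 0.04, adjusted p = 0.00117). ORMDL3, a regulator of sphingolipid synthesis, was at 558 and 535 CPM with HRG, 590.4 and 607 CPM with EGF and 674 and 677 CPM with vehicle (-0.13 ± 0.03, adjusted p = 0.0297). The third was ERBB2. The median of the list was -0.06. PGAP3 lost the call without EGF replicate 1 (log2 -0.14, adjusted p = 0.0837). ORMDL3 lost the call without EGF replicate 2 (log2 -0.11, adjusted p = 0.0857). PGAP3 and ORMDL3 lost the call without HRG replicate 2 (log2 -0.15 and -0.10 in that order, adjusted p between 0.0545 and 0.261).

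The vehicle libraries place both ligands. Against vehicle at 24 h, HRG gave 6105 DEGs (24.3%), of which 3176 were higher (12.6%) and 2929 lower (11.6%). EGF gave 4195 (16.7%), of which 2509 were higher (9.98%) and 1686 lower (6.7%). These contrasts share libraries with each other and with the comparison of the ligands, so their values are only set side by side. For the 73 genes higher with HRG, the median log2 difference from vehicle was 0.57 with HRG, with 64 DEGs higher and 0 lower, and 0.33 with EGF, with 48 higher and 4 lower. For the 181 genes higher with EGF it was -0.49 with HRG, with 10 higher and 159 lower, and -0.24 with EGF, with 19 higher and 117 lower. AREG rose with both ligands, by 2.603 ± 0.13 with HRG and 2.16 ± 0.13 with EGF on the log2 scale. CBLN2 was at -2.74 ± 0.09 and -2.12 ± 0.08, and both passed the test. SLC6A14 was higher than vehicle with HRG (0.51 ± 0.08, adjusted p = 1.55e-06) and at 0.02 ± 0.09 with EGF (adjusted p = 0.925). LSS was at -0.09 ± 0.05 with HRG (adjusted p = 0.217) and higher with EGF (0.16 ± 0.05, adjusted p = 0.0171). Of the 24 sterol synthesis genes, 17 were higher than vehicle and 1 lower with HRG, and 20 higher and 0 lower with EGF. Of the 40 mitosis genes 39 were higher than vehicle and 0 lower with each ligand, with medians of 0.46 for HRG and 0.39 for EGF.

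**Figure D3:**
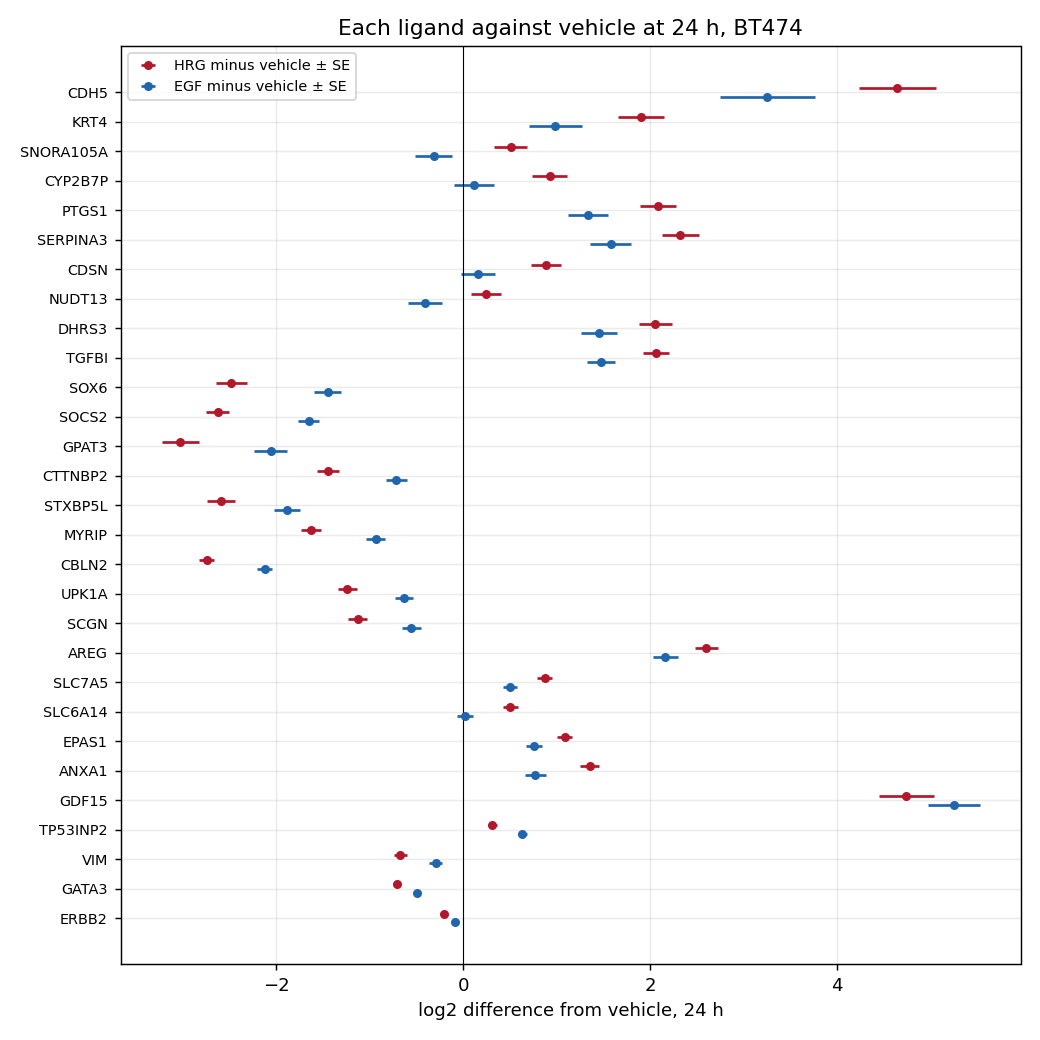
Log2 differences from vehicle at 24 h in BT474 of named genes, with red points for HRG and blue points for EGF and bars of 1 SE. Most pairs of points lie on the same side of 0 with the HRG point farther out, as for SOCS2 at -2.63 and -1.65, while GDF15 and TP53INP2 have the EGF point farther out.

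The same contrast at 12 h rested on other libraries. It gave 632 DEGs (2.51%), 352 higher with HRG (1.4%) and 280 higher with EGF (1.11%), and at 1 h it gave 32 (0.127%), 30 higher with HRG (0.119%) and 2 higher with EGF (0.00795%). Of the 73 genes higher with HRG at 24 h, 62 had a difference of the same sign at 12 h and 30 were DEGs there in that direction. Of the 181 higher with EGF, 160 had the same sign and 73 were DEGs in that direction, where 59.5% of all genes tested had the same sign at both times. A total of 104 genes were DEGs at both times, 40.9% of those at 24 h and 16.5% of those at 12 h, and 103 of them in the same direction. AREG was at 0.87 ± 0.10 (adjusted p = 4.09e-10) at 12 h, and the change to 24 h did not pass the test (-0.43 ± 0.14, adjusted p = 0.304). CDH5 was at 0.41 ± 0.39 at 12 h (adjusted p = 0.739) and PTGS1 at -0.41 ± 0.31 (adjusted p = 0.643), and their changes to 24 h did not pass either (0.98 ± 0.48 and 1.16 ± 0.35, adjusted p = 0.848 and 0.245). At 12 h the number of DEGs was 206 without EGF replicate 1, 333 without EGF replicate 2, 401 without HRG replicate 1 and 200 without HRG replicate 2. At 1 h it was 17 without EGF replicate 1 and 19 without HRG replicate 1.

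The difference between the ligands itself changed between 12 h and 24 h in 52 genes (0.207%), 3 toward HRG (0.0119%) and 49 toward EGF (0.195%). Of the 49, 14 belong to a list of 53 actin and adhesion genes that was made after values were seen. The genes named here, but for S100A10 and VIM, were also chosen after their values were seen. MYH9, non-muscle myosin IIA, was at 1942 and 1941 CPM with HRG and 1545 and 1583 CPM with EGF at 12 h, and at 1287 and 1277 against 1317 and 1294 CPM at 24 h. Its difference thus went from 0.31 ± 0.03 to -0.03 ± 0.03 (change -0.34 ± 0.04, adjusted p = 6.02e-07). HRG was above EGF at 12 h and the libraries were close at 24 h. ACTB, beta actin, went from 0.20 to -0.08 (change -0.28 ± 0.04), and FLNA, the actin crosslinker filamin A, from 0.25 to 0.01 (-0.24 ± 0.04). KRT8, a luminal keratin, went from 0.33 to 0.04 (-0.30 ± 0.04) and KRT80 from 0.59 to 0.12 (-0.47 ± 0.07). Of the 53 actin and adhesion genes, 22 were higher with HRG and 0 lower at 12 h, as were 1.4% and 1.11% of all genes tested. The change was toward EGF in 14 of them and toward HRG in 0, as in 0.195% and 0.0119% of all genes tested. Since the list was made with these data known, its counts do not test whether cytoskeleton genes changed as a set. S100A10 and VIM, described above as lower with HRG at 24 h, were at 0.19 ± 0.04 and 0.13 ± 0.07 at 12 h, and their changes passed the test (-0.44 ± 0.06 and -0.51 ± 0.10, adjusted p = 1.12e-05 and 0.0029).

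GPRC5A, an orphan receptor that retinoic acid induces, went from 0.40 to -0.09 (change -0.49 ± 0.07, adjusted p = 1.16e-05). LAMB1, a laminin chain, went from 0.23 to -0.12 (-0.35 ± 0.06), and FDPS, the farnesyl diphosphate synthase of the sterol path, from 0.31 to -0.09 (-0.40 ± 0.06). STK32B, a serine and threonine kinase, was at 7.86 and 8.68 CPM with HRG and 3.95 and 4.64 CPM with EGF at 12 h, and went from 0.95 to -0.38 (-1.33 ± 0.24). The 3 genes with a change toward HRG were ABCC4, an exporter of cyclic nucleotides, ELAPOR1, a membrane protein of endosomes and lysosomes, and BTG2, an antiproliferative gene. ABCC4 went from -0.16 to 0.33 (0.49 ± 0.11, adjusted p = 0.0224), ELAPOR1 from -0.42 to -0.15 (0.27 ± 0.05, adjusted p = 0.00285) and BTG2 from -0.41 to -0.06 (0.35 ± 0.07, adjusted p = 0.00316). The number of genes with a change was 21 and 23 without EGF replicates 1 and 2 of 12 h, 16 without HRG replicate 2 of 12 h, and 110 and 119 without EGF replicates 1 and 2 of 24 h. ABCC4 lost the call without EGF replicate 2 of 12 h (0.41), HRG replicate 1 (0.44) or 2 (0.55) of 12 h, EGF replicate 1 of 24 h (0.45) and HRG replicate 1 of 24 h (0.46). BTG2 lost it without EGF replicate 1 (0.32) or HRG replicate 2 (0.29) of 12 h.

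**Figure D4:**
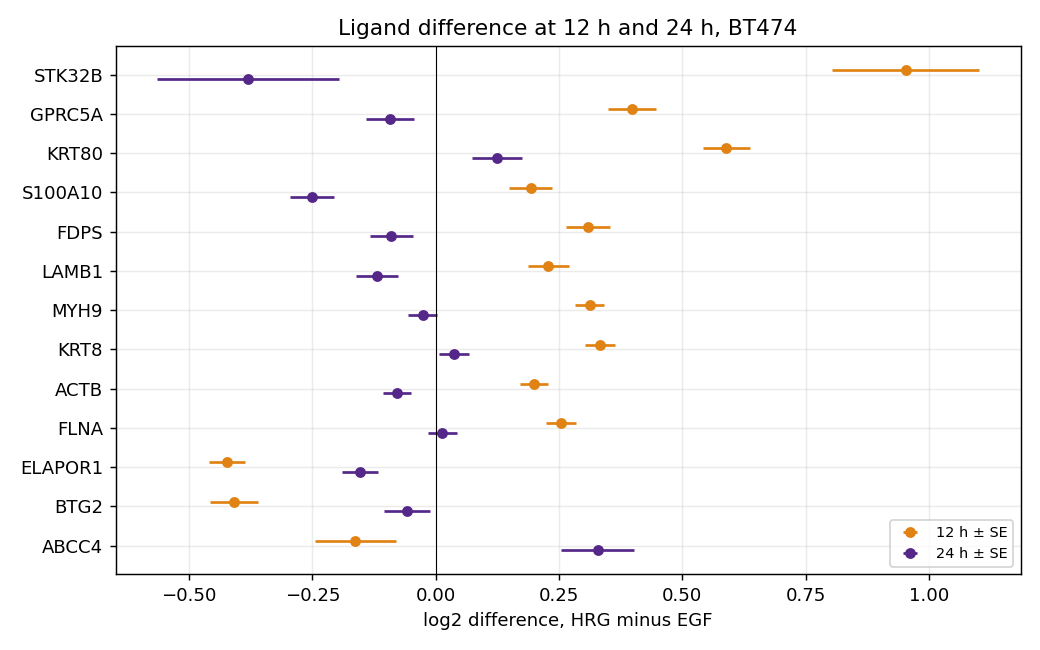
Log2 difference of HRG minus EGF in BT474 at 12 h (orange) and 24 h (purple) with bars of 1 SE, for 13 genes in which this difference changed between the times. The orange points of the top 10 genes lie to the right of 0 and of their purple points, as for KRT80 at 0.59 and 0.12, and those of the bottom 3 lie to the left.

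In BT474R the ligands differed more and often the other way. The 24 h contrast gave 1295 DEGs of 24287 genes tested (5.33%), 475 higher with HRG (1.96%) and 820 higher with EGF (3.38%). A total of 65 genes were DEGs in both lines, 25.6% of those of BT474 and 5.02% of those of BT474R, and 9 of them had the same direction. Of the genes higher with HRG in BT474, 18 of the 71 tested in BT474R had the same sign there, and of those higher with EGF 61 of 181, against 46.7% of all genes tested in both. The difference between the ligands itself differed between the lines in 1224 of 24641 genes (4.97%), 451 toward HRG in BT474R (1.83%) and 773 toward EGF (3.14%). Leaving out 1 library at a time gave between 723 and 1608, the lowest without HRG replicate 1 of BT474. The duplicates of HRG in BT474R differed more than others, with a median chi-square of 2.56, and the DEG number there was 2144 without HRG replicate 2, 714 without EGF replicate 2 and 859 without EGF replicate 1.

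AREG was at 0.685 and 0.506 CPM with HRG and 3.75 and 3.80 CPM with EGF in BT474R, where EGF was thus far higher (-2.65 ± 0.31, difference between the lines -3.12 ± 0.30, adjusted p = 3.83e-11). DUSP6, alike with both ligands in BT474, was at 97.8 and 147 CPM with HRG and 511 and 506 CPM with EGF there (-2.05 ± 0.14, between the lines -2.07 ± 0.15). ERRFI1 was at -1.504 ± 0.08 in BT474R (-1.51 ± 0.10 between the lines). EGF was the higher in all 3 feedback and ligand genes. GATA3 was at 31.8 and 21.1 CPM with HRG and 11.0 and 10.2 CPM with EGF (1.32 ± 0.20, between the lines 1.504 ± 0.19, adjusted p = 1.71e-05). THRA was at 0.47 ± 0.05 (0.62 ± 0.07) and ERBB4 at 0.67 ± 0.13 (0.76 ± 0.15). These nuclear and membrane receptors and GATA3 were higher with HRG in BT474R. Of 43 interferon response genes tested there, 0 were higher and 33 lower with HRG, and of 47 tested for the difference between the lines, 27 passed toward EGF and 1 toward HRG. IRF1 was at -2.81 ± 0.27 (-2.75 ± 0.30).

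Of the 19 named genes with the widest difference in BT474, 5 were DEGs in BT474R, all in the other direction, and 14 did not pass the test there. The difference between the lines passed in 12 of the 19, and in 4.97% of all genes tested. The 19 were chosen by their difference in the BT474 libraries, which this contrast also uses. The count of 12 therefore does not test whether the lines differ. SOCS2 was at 3.01 and 3.04 CPM with HRG and 1.58 and 1.84 CPM with EGF (0.82 ± 0.20, adjusted p = 0.0109), and MYRIP at 5.34 and 6.58 against 2.73 and 2.43 CPM (1.21 ± 0.16, adjusted p = 5.00e-06). Both were higher with HRG in BT474R and with EGF in BT474, and the lines differed by 1.76 ± 0.25 and 1.87 ± 0.20. SERPINA3 was at -1.24 ± 0.34 (-2.01 ± 0.35 between the lines), SLC6A14 at -0.59 ± 0.15 (-1.11 ± 0.16) and EPAS1 at -0.40 ± 0.06 (-0.76 ± 0.10), so they were higher with EGF in BT474R. GPAT3 was at -0.98 ± 0.59 in BT474R (adjusted p = 0.459) and the lines differed by -0.05 ± 0.48 (adjusted p = 1). NUDT13 was at 0.53 ± 0.31 (adjusted p = 0.446).

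**Figure D5:**
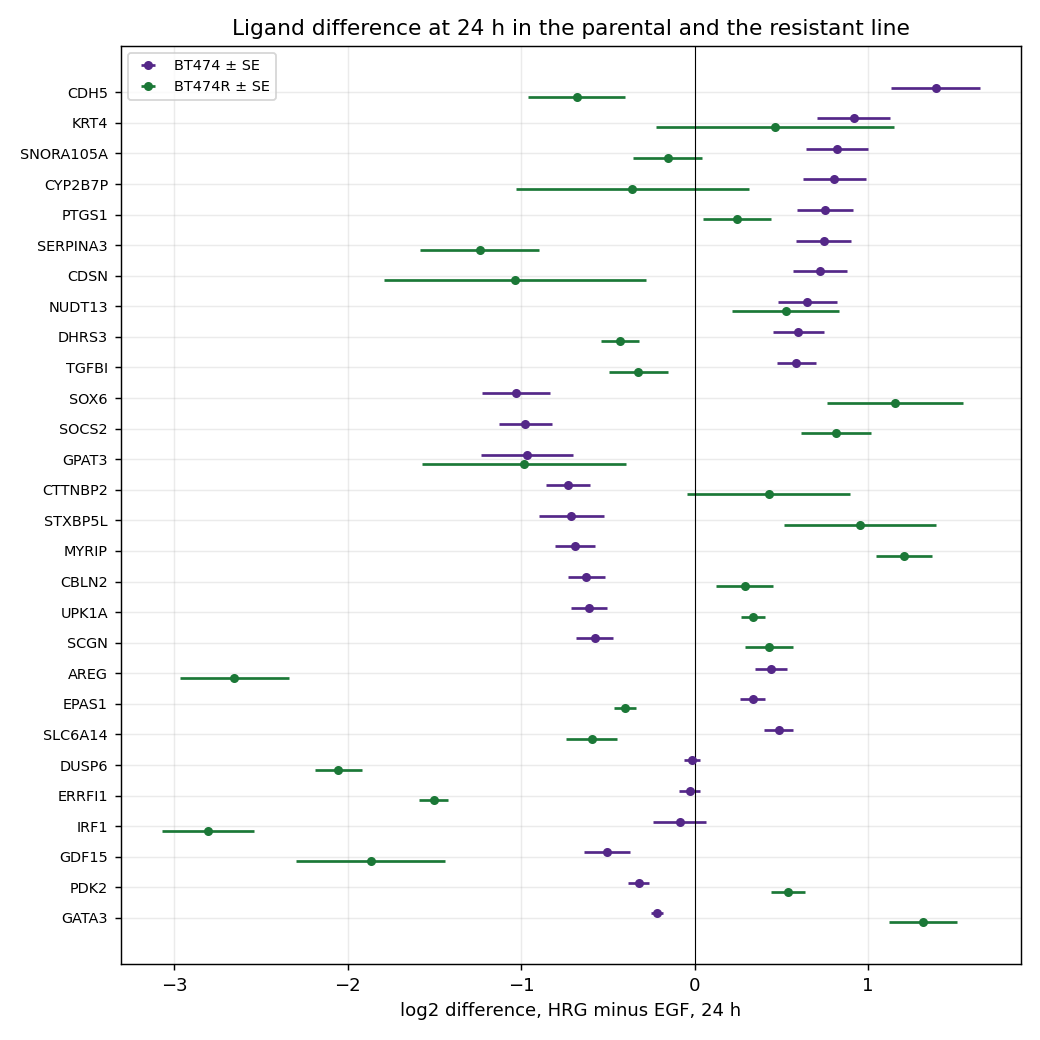
Log2 difference of HRG minus EGF at 24 h in BT474 (purple) and BT474R (green) with bars of 1 SE for named genes. The points of many genes lie on opposite sides of 0, as for SOCS2 at -0.98 and 0.82, and DUSP6, ERRFI1 and IRF1 lie near 0 in BT474 and below it in BT474R.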

How the data were processed

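RNA was sequenced from 40 libraries of BT474 and BT474R cells in 20 groups. Per the labels and the study's methods, the authors prepared mRNA libraries, checked reads with FastQC and MultiQC, trimmed them with Trim Galore 0.6.6 aligned them to GRCh38.p13 with Rsubread and counted them per gene with its function featureCounts. The annotation release, strand setting and handling of reads with several matches are not given in the sources used here, so genes that overlap, lie antisense or have near copies are uncertain. The deposited values are raw counts, whole numbers per gene, for 44584 names. Of these 5078 are a gene's name written again with a numeric suffix and hold 2.96% of the counts, and 9125 have no count in any library.

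Genes counted at least once in 50% or more of the 20 BT474 libraries (10) were tested with edgeR 4.0.16 (quasi-likelihood F test, robust, TMM scaling) in R 4.3.3, in 1 fit with a group per treatment and time and no replicate block, and p-values were adjusted by the method of Benjamini and Hochberg with a threshold of 0.05. BT474R was fitted alike on its own and the difference between the lines in a fit of 40 libraries. The comparison of the ligands at 24 h was also run on simulated counts, and the outcome is not given here. In these counts each gene had the same spread in every group. They could therefore not show the effect of the wider spread between the duplicates of 24 h. Totals per BT474 library ran from 19200632 to 29098915 counts, and a count of 3 was taken as the detection limit. Intervals of ratios of summed counts cover counting error only.

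The gene lists and the choice of comparison were made with earlier results of these data known. Named genes were the 10 per direction with the widest difference among DEGs of at least 1 CPM on average whose groups did not overlap, leaving out repeated names and names starting with LOC or LINC, the receptors and ligands of the ERBB family, up to 4 called members per direction of each list, and IRF1, HIF1A, MYC, CCND1, ERRFI1 and DUSP6. Some genes that this rule takes are not reported here. Other genes are marked as chosen later. Of the genes tested, 85.6% (21529 of 25146) had their name in RefSeq. The motif search covered fewer, the 15526 with a promoter sequence under their symbol. Alternatives were DESeq2 1.42.0, its size factors within edgeR, other filters, repeated names added together, libraries thinned to 1 depth, other sets of libraries in the fit, a replicate block and leaving out each library.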

Additional observations from a re-analysis of the deposited data

Results flagged for a closer look

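The difference between HRG and EGF in BT474 changed between 12 h and 24 h in 52 genes. As 24 h minus 12 h on the log2 scale, the change among the genes named in the text was -1.33 for STK32B, -0.51 for VIM, -0.49 for GPRC5A, -0.47 for KRT80, -0.44 for S100A10, -0.40 for FDPS, -0.35 for LAMB1, -0.34 for MYH9, -0.30 for KRT8, -0.28 for ACTB and -0.24 for FLNA, all toward EGF. It was 0.27 for ELAPOR1, 0.35 for BTG2 and 0.49 for ABCC4, toward HRG. Each was drawn out by the interaction test of edgeR. All but VIM and S100A10 were named after their values were seen, and the libraries without which ABCC4 and BTG2 lost the call are given above.

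The difference between HRG and EGF at 24 h differed between BT474R and BT474 in 1224 genes. Many of the named genes were chosen by their difference in the BT474 libraries, which this contrast also uses. As BT474R minus BT474 it was -3.12 for AREG, -2.75 for IRF1, -2.42 for EPGN, -2.10 for CDH5, -2.07 for DUSP6, -2.01 for SERPINA3, -1.51 for ERRFI1, -1.38 for BTC, -1.11 for SLC6A14, -1.06 for DHRS3, -1.003 for SNORA105A, -0.94 for TGFBI, -0.76 for EPAS1, -0.50 for DDX21, -0.40 for SLC7A5, -0.33 for S100A10, -0.25 for SLC3A2 and -0.22 for NOLC1. These went toward EGF in BT474R. The other direction held for MVK at 0.39, THRA at 0.62, IGFBP5 at 0.72, ERBB4 at 0.76, PDK2 at 0.83, CBLN2 at 0.88, UPK1A at 0.92, SCGN at 0.97, GATA3 at 1.504, STXBP5L at 1.64, SOCS2 at 1.76, MYRIP at 1.87 and SOX6 at 2.16.

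Of these 31 genes, 21 kept the call of a difference between the lines without each of the 8 ligand libraries of 24 h. Without EGF replicate 1 of BT474R the call was lost for EPGN (-2.17), SNORA105A (-0.93), NOLC1 (-0.21), MVK (0.31), IGFBP5 (0.61) and STXBP5L (1.63). Without EGF replicate 2 of BT474R the call was lost for BTC (-1.36), SLC7A5 (-0.34), SLC3A2 (-0.20), NOLC1 (-0.23) and STXBP5L (1.65). Without HRG replicate 1 of BT474R the call was lost for EPGN (-2.01), SLC7A5 (-0.37), SLC3A2 (-0.21), NOLC1 (-0.16) and STXBP5L (0.65). Without HRG replicate 2 of BT474R the call was lost for BTC (-1.23), SNORA105A (-0.89) and MVK (0.30). Without EGF replicate 1 of BT474 the call was lost for EPGN (-2.67), BTC (-1.13), SNORA105A (-0.61), SLC3A2 (-0.23), NOLC1 (-0.15), MVK (0.40), IGFBP5 (0.63) and STXBP5L (1.56). Without EGF replicate 2 of BT474 the call was lost for EPGN (-2.23) and SLC7A5 (-0.30). Without HRG replicate 1 of BT474 the call was lost for EPGN (-2.35), SNORA105A (-0.89), SLC7A5 (-0.33), S100A10 (-0.31), SLC3A2 (-0.20) and NOLC1 (-0.21). Without HRG replicate 2 of BT474 the call was lost for NOLC1 (-0.23), MVK (0.35) and STXBP5L (1.39).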

How the results depend on the processing

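No called difference of a named gene reversed under any alternative. Of the 27 named genes that were not called at 24 h, 12 had a difference that changed sign without some library, and 3 of these also under another setting. Of the 68 named genes called at 24 h, 15 kept the call without each of the 4 libraries in turn. Leaving out 1 library gave between 169 and 857 DEGs at 24 h, with 47 to 402 higher with HRG and 109 to 455 higher with EGF. The ranges were 200 to 401 at 12 h, 17 to 30 at 1 h, 16 to 119 for the change between 12 h and 24 h, 714 to 2144 in BT474R, 723 to 1608 between the lines, 4478 to 5459 for HRG against vehicle and 2693 to 4015 for EGF against vehicle. Fitting both lines together gave 74 DEGs at 24 h (33 higher with HRG, 41 with EGF, 29 of the 68 calls kept), 294 at 12 h, 11 at 1 h and 9 genes with a change between the times. Fitting only the libraries compared gave 44 at 24 h (20 and 24, with 22 of the 68 kept), 1468 at 12 h, 60 at 1 h, 24 for the change between the times, 275 in BT474R and 336 between the lines. DESeq2 gave 146 DEGs at 24 h, 97 of them higher with EGF, and adjusted the p-values of 5158 genes, so that 32 of the 68 had an adjusted p and 30 of these passed. With no filter there were 399 at 24 h (164 higher with HRG), 65 at 1 h and 92 with a change between the times. Size factors in place of TMM moved the share of DEGs that were higher with HRG from 28.7% to 37.0% and the median of all genes from -0.010 to -0.001. The groups share replicate numbers that no source ties to a culture or day. Same-numbered libraries of HRG and EGF at 24 h deviated together with a correlation of 0.188 (0.298 for HRG and vehicle, 0.145 for EGF and vehicle), and 2 pairs are too few to take the numbers as pairs. With the replicate block there were 316 DEGs at 24 h, 253 of the 254 among them, and SLC7A5 lost its call (adjusted p = 0.0575). With the replicate block within each time there were 567 at 24 h (200 higher with HRG, 367 with EGF, all 254 among them), 1043 at 12 h, 76 at 1 h and 132 with a change between the times. The cause of these moves was not tested beyond the smaller number of libraries or genes in a fit. At these totals, differences in genes with few counts, such as NRG2, could not be measured.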

Other observations

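Lists not described above held few DEGs between HRG and EGF at 24 h in BT474. Of 17 keratins 1 was higher, KRT4, and 0 lower, and 4 were higher at an unadjusted p below 0.05. At 12 h 9 of the 17 were higher with HRG and 0 lower, and the change to 24 h passed the test toward EGF in 5. Against vehicle at 24 h the keratins were higher with both ligands, 11 of 17 with each, with medians of 1.13 for HRG and 0.87 for EGF. Of 20 YAP and TEAD targets 0 were called at 24 h by edgeR, with 1 higher and 2 lower at an unadjusted p below 0.05, while 4 were higher and 0 lower at 12 h. Of 22 mucins and secretory genes 0 were higher and 1 lower, TFF3, and of 16 retinoic acid genes 1 was higher, DHRS3, and 0 lower.

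The remaining lists had 0 members called by edgeR at 24 h. Of 18 members of the BCL2 family, which decides over survival at the mitochondrion, 0 were higher and 4 lower at an unadjusted p below 0.05. The counts higher and lower were 3 and 3 of 22 genes of the unfolded protein response, 2 and 2 of 18 of MHC class I and antigen processing, 1 and 3 of 23 NF-kB genes and chemokines, 1 and 2 of 18 clock genes, and 1 and 0 of 16 adenylyl cyclases and phosphodiesterases. Of 43 nuclear genes of the respiratory chain 0 were higher and 2 lower at that p, and in all 43 the interval lay within 1.5-fold. The 2 transcripts of the mitochondrial genome that were tested had 0 in either direction. The 6 basal markers summed to 10.6 and 12.2 CPM with HRG, 11.1 and 10.5 CPM with EGF and 5.72 and 7.28 CPM with vehicle, so both ligands lay above vehicle. Most of this sum was TP63 (3.21 to 7.64 CPM) and OXTR (1.96 to 3.53 CPM). KRT5 and KRT14 were under 1 CPM and ACTA2 was at 0 in these libraries, so the sum does not show a rise of the panel as a whole. The 7 immune markers summed to between 1.64 and 3.05 CPM in these libraries, nearly all of it CD68 (1.55 to 2.91 CPM), with CD3E and MS4A1 at 0. The 4 adipocyte markers summed to between 0.328 and 1.86 CPM.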
